A study of Mus musculus with 5 samples.

Results

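Igf1 encodes insulin-like growth factor 1, a secreted growth factor, and the chromatin around it was examined for binding of estrogen receptor α (ERα) in the mouse uterus. All ERα peaks that overlapped chromosome 10 from 87121000 to 87600000 (mouse build mm9, as are all peak positions given) were taken. This window of 479 kb holds Igf1, from about 87.321 to 87.400 Mb, with 200 kb on each side. It contained 21 of the 22424 peaks deposited for ERα: 5 of 5184 in the vehicle library and 16 of 17240 in the estradiol library.

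Chromatin came from whole uteri of C57BL/6J mice whose ovaries had been removed 10 to 14 days earlier, which takes away the main source of circulating estradiol. Animals in the vehicle group received saline, those in the estradiol group 250 ng of estradiol each, both by injection into the peritoneum, and uteri were taken 1 hour later. ERα was precipitated with the same antibody in both groups, and each condition is 1 library, so no difference below has a replicate check and none carries a p-value. The labels name both libraries wild type ("WT") and do not state the age of the mice or how many uteri went into each library. Whole uterus mixes epithelium, stroma, muscle, vessels and immune cells, and a peak does not say which of them was bound. RNA polymerase II and input libraries of the same series were not analysed here, so neither transcription of Igf1 nor background signal in input chromatin was measured.

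As background, IGF1 acts through its receptor, a tyrosine kinase encoded by Igf1r, and promotes growth and cell division. In the rodent uterus Igf1 is a classical estrogen-induced gene, and IGF1 from the stroma is known to act on the neighbouring epithelium. ERα is a nuclear receptor that, with estradiol bound, attaches to estrogen response elements in DNA or to other transcription factors, often far from the genes it regulates. A site at a distance from Igf1 is placed here by its position on the chromosome only, and the peak lists do not say which gene a site acts on.

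For orientation at the gene itself, the single Igf1 promoter in the RefSeq table (build GRCm38.p6, plus strand, 250 bases before to 50 bases after a start of transcription) is shown 5′ to 3′. It is the only sequence at hand for the locus, since no mm9 sequence was used and the peaks themselves could not be read. Capitals mark the letters GGTCA, one arm of the estrogen response element.
Igf1 promoter: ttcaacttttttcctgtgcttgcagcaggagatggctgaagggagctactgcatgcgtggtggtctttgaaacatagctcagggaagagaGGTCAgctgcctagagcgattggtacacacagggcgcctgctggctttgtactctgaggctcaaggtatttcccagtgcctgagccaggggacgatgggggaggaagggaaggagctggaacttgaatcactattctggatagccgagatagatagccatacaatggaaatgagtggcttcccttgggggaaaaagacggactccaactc
The full element, GGTCA and TGACC with any 3 bases between them, searched on both strands, had 0 matches in these 300 bases and was present in 0.07% of the 32851 promoters of that length in the table. The arm GGTCA, also searched on both strands, had 1 match, at bases 91 to 95 of the printed sequence. At least 1 such match was present in 40.5% of all promoters, so a match to this short word was common. Igf1 has several starts of transcription, the builds differ, and whether any peak covers this promoter was not determined.

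Without estradiol, ERα peaks were called at 5 places around Igf1, all before the gene. In the order of the chromosome they ran from 87129243 to 87129443 (201 bp), from 87250338 to 87250542 (205 bp), from 87258360 to 87258723 (364 bp), from 87275104 to 87275253 (150 bp) and from 87284673 to 87285014 (342 bp). Their distances to the start of the Igf1 span were about 192, 70, 62, 46 and 36 kb. Igf1 lies on the plus strand in RefSeq, so positions before the span are upstream of the gene. Of the 5 sites, 4 fell within one stretch of 34.7 kb and the remaining one lay 120.9 kb farther from the gene. No vehicle peak was called within the gene or in the 200 kb after it.

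After 1 hour of estradiol, 16 peaks were called in the same window, 12 before the gene, 2 within its span and 2 after it. The vehicle library divided as 5, 0 and 0 over the same 3 parts. All 5 vehicle peaks overlapped an estradiol peak by at least 1 bp, and 5 of the 16 estradiol peaks overlapped a vehicle peak. Over the whole lists 71.3% of vehicle peaks and 21.2% of estradiol peaks did so. The share among estradiol peaks at Igf1 was 31.3% (95% exact binomial interval 11.0 to 58.7) and the share among vehicle peaks was 100% (47.8 to 100), so both intervals hold the value of the whole list. These intervals cover counting error only. There were 3.2 times as many estradiol as vehicle peaks at Igf1 and 3.33 times as many over the whole lists, so the excess of peaks after estradiol was close to that of the lists as a whole.

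**Figure D1:**
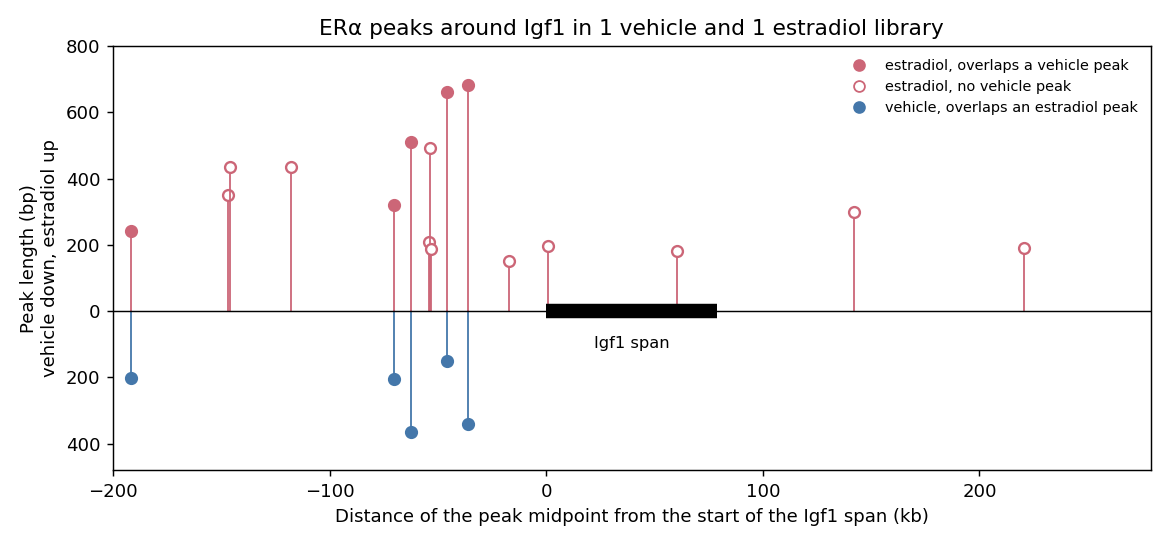
Each line is 1 ERα peak, placed by its distance from the start of the Igf1 span (kb) and drawn to its length (bp), upward for the estradiol library and downward for the vehicle library; the black bar is the Igf1 span. All 5 vehicle peaks lie left of the gene and pair with a filled estradiol point. The 4 estradiol peaks within or after the gene have no vehicle peak, like 13577 of the 17240 estradiol peaks of the whole list.

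At all 5 sites called in both libraries the estradiol peak was the longer of the pair. The pair nearest to the gene, about 36 kb upstream, measured 342 bp after vehicle and 681 bp after estradiol (87284385 to 87285065), a ratio of 1.99. About 46 kb upstream the vehicle peak of 150 bp lay inside an estradiol peak of 662 bp (87274856 to 87275517), a ratio of 4.41. This was the largest ratio of the 5, and of the 3584 sites in the genome where 1 vehicle peak met 1 estradiol peak, 40 had a ratio at least as high. The site about 62 kb upstream had peaks of 364 and 509 bp (87258371 to 87258879, ratio 1.40), and the site about 70 kb upstream had peaks of 205 and 319 bp (87250311 to 87250629, ratio 1.56). The most distant site, about 192 kb upstream, had the smallest ratio, with peaks of 201 and 241 bp (87129195 to 87129435, ratio 1.20). The estradiol peak was longer at 5 of 5 sites, against 74.8% of the 3584 sites, and the median ratio was 1.56 (range 1.20 to 4.41) against 1.29 over all of them. The upper quartile over all sites was 1.75, which only the 2 sites closest to the gene exceeded. Peak length is the extent of the called interval and not a measure of signal height, and the read depth of both libraries is unknown, so its part in these differences was not tested.

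How far the estradiol peaks reached past the vehicle peaks differed between sites and sides. At the site about 46 kb upstream the estradiol peak reached 248 bp farther to the left and 264 bp farther to the right, so the midpoints differed by 8 bp. At the site about 36 kb upstream it reached 288 bp farther left, away from the gene, and 51 bp farther right, which placed its midpoint -118.5 bp from that of the vehicle peak. At the site about 62 kb upstream the extension was to the right, 156 bp, and the left edge of the estradiol peak lay inside the vehicle peak. The midpoints there were 83.5 bp apart. Of the 3584 sites the median midpoint shift, in either direction, was 17 bp. At the sites about 192 and 70 kb upstream the estradiol midpoint lay at -28 and 30 bp, negative values being farther from the gene.

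**Figure D2:**
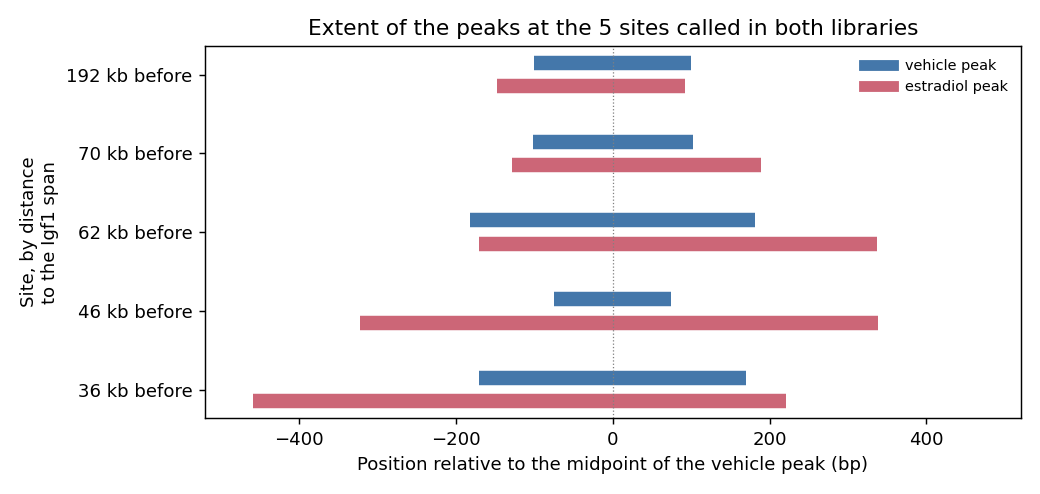
Extent of the vehicle and estradiol peak (bp, relative to the midpoint of the vehicle peak) at the 5 sites called in both libraries, ordered by distance to the Igf1 span. At the sites 46 and 36 kb before the gene the estradiol peaks of 662 and 681 bp extend well past the vehicle peaks of 150 and 342 bp, whereas the pair 192 kb away nearly coincides.

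Of these 5 sites, 4 belonged to a cluster of estradiol peaks upstream of Igf1. A cluster was taken as at least 5 peaks of one library with gaps under 12500 bp. The cluster held 7 estradiol peaks over 34.8 kb, from 87250311 to 87285065, about 71 to 36 kb before the gene. Of its 7 peaks, 4 overlapped the vehicle peaks listed above and 3 did not. The same split for clustered peaks of the whole list is not given here. Over the whole lists, 14.6% of estradiol peaks and 1.45% of vehicle peaks lay in such clusters. The estradiol list formed 363 of them with a median of 6 peaks, and 146 (40.2%) held 7 or more, so a cluster of this size was common. The same stretch held only 4 vehicle peaks, too few for the definition at any gap. No more than 2 of them followed each other with gaps under 12500 bp, and with gaps under 25 kb all 4 formed a single run over 34.7 kb. With gaps under 25 kb the estradiol cluster grew to 9 peaks over 71.6 kb, from 87250311 to 87321917. It then reached into the Igf1 span, so the edge toward the gene depends on the gap allowed.

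The 3 cluster peaks without a vehicle peak lay side by side. They ran from 87266539 to 87266747 (209 bp), from 87266805 to 87267297 (493 bp) and from 87267500 to 87267687 (188 bp), within 1149 bp in all and with gaps of 57 and 202 bp. A longer middle peak was thus flanked by a shorter one on each side. The nearest vehicle peak to this group was 7.42 kb away, and it was the short 150 bp peak described above. With peaks closer than 500 bp joined, this group and the close pair described next counted as 1 site each, which left 13 estradiol peaks in the window. The cluster then holds fewer sites, and how common that size is among clusters of joined peaks was not determined.

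Farther upstream, 3 estradiol peaks stood apart from the cluster and from every vehicle peak. A close pair lay about 147 and 146 kb before the gene, from 87173899 to 87174248 (350 bp) and from 87174498 to 87174932 (435 bp), with 249 bp between them. A peak of 434 bp from 87203028 to 87203461 followed, about 118 kb before the gene. Their nearest vehicle peaks were 44.5, 45.1 and 46.9 kb away. All 3 were longer than the median of 242 bp of the estradiol list and longer than the median of 227 bp of estradiol peaks without a vehicle overlap.

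The remaining 5 peaks, from 17 kb before the gene to the end of the window, were called in the estradiol library only. Most estradiol peaks of the whole list, 13577 of 17240, also met no vehicle peak, so this was common. The peak from 87303748 to 87303899, about 17 kb before the gene, measured 152 bp and was the shortest of the 16. The peak from 87321723 to 87321917 (195 bp) was the nearest to the beginning of the gene. It fell about 1 kb inside the Igf1 span, which is known here only to about 1 kb, so whether it covers the first exon, a promoter or sequence just before the gene was not determined. A second peak within the span, from 87381393 to 87381573 (181 bp), lay about 60 kb after its start. Whether that position is exonic or intronic was not determined without an mm9 annotation. After the gene there were peaks of 300 bp from 87462760 to 87463059, about 63 kb past its end, and of 189 bp from 87541264 to 87541452, about 141 kb past it. The latter was the last peak of the window. The longest stretches of the window without a peak of either library, of 81.2 and 78.2 kb, lay on each side of the 300 bp peak.

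Peak lengths at Igf1 are described here by position and by overlap. These were not independent, since all 5 estradiol peaks that met a vehicle peak lay before the gene. The whole list was not divided by position relative to genes. The 12 estradiol peaks before the gene had a median length of 392 bp, and the other 4 measured 195, 181, 300 and 189 bp. All 6 peaks over 400 bp lay before the gene, and 3 of them had no vehicle overlap. That split was not set against peaks over 400 bp of the whole list, so it cannot be called high or low. Peaks over 400 bp, a mark set after seeing the lengths, made up 37.5% of the 16 and 11.6% of the whole estradiol list. Among the estradiol peaks, the 5 that met a vehicle peak ranged from 241 to 681 bp with a median of 509 bp, and that median was 306 bp over the whole list. The 11 that met none ranged from 152 to 493 bp with a median of 209 bp, and that median was 227 bp over the whole list. The length ranges of these 2 groups at Igf1 overlapped from 241 to 493 bp. Of the 16 peaks, 9 were longer than the list median. The median of all 16 was 309.5 bp (95% interval 189 to 493), an interval that holds the list median of 242 bp. The 2 peaks of 681 and 662 bp were exceeded in length by 295 and 332 of the 17240 estradiol peaks. In the vehicle library the median at Igf1 was 205 bp (range of the 5 peaks 150 to 364), against 207 bp in the whole list. Peaks covered 1262 bp of the window in the vehicle library and 5538 bp in the estradiol library, a ratio of 4.39, against 3.93 for the whole lists.

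**Figure D3:**
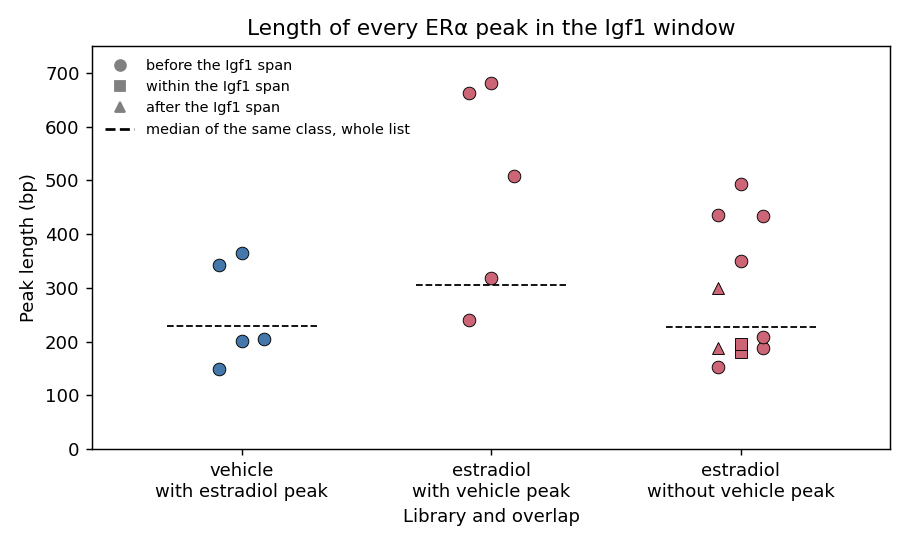
Length (bp) of each of the 21 ERα peaks, grouped by library and overlap, with marker shape giving the position relative to the Igf1 span; dashed lines are the medians of the same classes over the whole lists. The 3 longest estradiol peaks overlap a vehicle peak, and peaks within or after the span do not exceed 300 bp.

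Each peak also carries a number in its deposited name, whose meaning is not stated. In the estradiol list the numbers up to 5480 run in genome order chromosome by chromosome, and this first run breaks there. Whether higher numbers form further runs was not examined. At Igf1, 7 of the 16 estradiol peaks (43.8%) had a number in that first run, against 31.8% of the list. These 7 measured 350 to 681 bp and the other 9 measured 152 to 319 bp, so number and length split the peaks the same way. Across the whole estradiol list, half-way lengths (medians) were 354 bp inside the first run and 203 bp outside it. A length difference in this direction was thus not particular to Igf1. The 7 peaks comprised the close pair and the single peak far upstream, the middle peak of the group of 3, and the shared sites about 62, 46 and 36 kb upstream. In the vehicle list the first run ended at 384 and held 7.41% of peaks. It included 2 of the 5 peaks at Igf1, those of 364 and 342 bp about 62 and 36 kb upstream. The vehicle peak of 150 bp about 46 kb upstream was number 4449, outside the first run, while its estradiol counterpart of 662 bp was number 573, inside it. Within the first run a number gives the place along the genome, so these 2 numbers are not ranks that can be compared.

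The window was rich in peaks and bordered an empty stretch. It held 33.4 estradiol and 10.4 vehicle peaks per Mb, against 7.80 and 2.64 over chromosome 10 and 6.76 and 2.03 over all chromosomes. Across the genome, cut into 5343 windows of the same length, 167 (3.13%) held at least 16 estradiol peaks, 258 (4.83%) at least 5 vehicle peaks, and 88 at least as many of both. The median window held 1 estradiol peak and 0 vehicle peaks. The window was chosen for Igf1 and not drawn at random, so these shares are descriptions. Before the window, the nearest estradiol peak lay 776 kb and the nearest vehicle peak 1318 kb from its edge. After it, a vehicle peak of 144 bp began 43.1 kb from the edge and an estradiol peak of 191 bp began 44.4 kb from it, without overlapping each other. The 10 windows of equal length on both sides held 0 to 14 estradiol peaks (median 2.5) and 0 to 4 vehicle peaks (median 0).

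**Figure D4:**
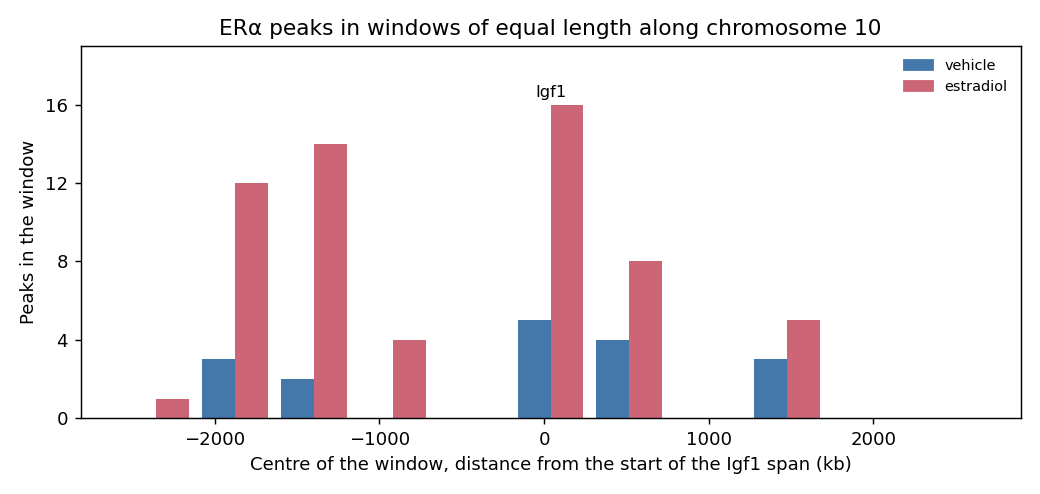
Number of ERα peaks in the Igf1 window and in 5 windows of the same 479 kb on each side along chromosome 10, by distance of the window centre from the start of the Igf1 span (kb). The Igf1 window has 16 estradiol and 5 vehicle peaks, the window before it has none, and the next highest window holds 14 estradiol peaks.

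Other genes adjoin Igf1, and the sites cannot be assigned among them by these data. In RefSeq on GRCm38 the long noncoding RNA gene Igf1os overlaps the beginning of Igf1, and the nearest protein-coding gene after Igf1 is Pmch, which encodes the precursor of melanin-concentrating hormone. Which of these fall inside the mm9 window, and which upstream sites lie within Igf1os, was not determined.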

How the data were processed

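Peaks of ERα ChIP-seq were deposited by the authors as 1 list per library, with chromosome, start, end and a peak name, on mm9 per the file headers. The submitters' processing notes also name mm9, and name Partek without saying what it was used for. How reads were aligned, peaks called and input used is not given in the sources used here. Neither list holds a score or a read count, so depth is unknown. Deposited starts were read as counted from 0 and are printed counted from 1.

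The window was read from its definition, and the span of Igf1 is that window less 200 kb on each side. Overlap meant at least 1 bp, counted in Python 3.11.15 with numpy 2.4.6 and checked with bedtools 2.31.1. Exact (Clopper-Pearson) and order-statistic 95% intervals used scipy 1.17.1 and treat peaks as independent. With 5 vehicle peaks an order-statistic interval could not reach 95%, so the range of their lengths is given instead. Windows of equal length and their neighbours count peaks by midpoint. The counters were tested on simulated data. With 1 library per condition no test was made. All 21 peaks are described. The window, comparisons and alternatives were chosen with earlier results of these data known, and the length mark of 400 bp, the deposited numbers and the equal-length windows over all chromosomes were added after seeing the values. Lacking an mm9 annotation, exon positions and a planned list of genes of the IGF system were not analysed here. The alternatives were other overlaps, joined peaks, parts of the lists, flanks, cluster definitions and a wider gene span.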

Additional observations from a re-analysis of the deposited data

How the results depend on the processing

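Of 44 alternative values, 38 stayed near those reported: counts within 1.5 times, and shares, median lengths and the length ratio within their intervals. For the length ratio the interval was the range of the 5 ratios, and for the vehicle median the range of the 5 lengths. An alternative that kept a subset of the 5 sites could not leave the range of the ratio, and the intervals of the shares were wide. The count of 38 is therefore not a measure of robustness. With each list cut to the longer 50% of its peaks, 2 of 5 vehicle and 9 of 16 estradiol peaks were left at Igf1. With each list cut to the lower 50% of the peak numbers, 3 and 9 were left. Both cuts remove 50% of all peaks, so fewer peaks at Igf1 say nothing particular about the locus. With 500 kb on each side of the gene there were 9 vehicle and 20 estradiol peaks. Of these, 7 of 9 vehicle peaks (77.8%) and 7 of 20 estradiol peaks (35%) overlapped a peak of the other library. With gaps under 5 kb the upstream estradiol cluster was no longer formed (0 clusters), since its sites lie 7.2 to 8.9 kb apart. With gaps under 25 kb it held 9 peaks and reached into the Igf1 span. With an overlap of 50% of both peaks, the site about 46 kb upstream no longer counted as shared, which left 4 of 5. No paired analysis was possible because each condition has 1 library, and none could be left out. The unknown depth limits every comparison of peak number and length.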

Other observations

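Beyond the window, the next 479 kb after it held 4 vehicle and 8 estradiol peaks. The window that ends 200 kb before Igf1 held 0 of either. A pair of stretches farther before the gene, from 85204996 to 85683996 and from 85683997 to 86162997 on chromosome 10, held 12 and 14 estradiol peaks with 3 and 2 vehicle peaks.

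The site about 46 kb upstream of Igf1 combined the shortest vehicle peak of the locus (150 bp, with 4101 of 5184 vehicle peaks longer) with the second longest estradiol peak (662 bp, with 332 of 17240 longer). The site about 62 kb upstream had the longest vehicle peak of the locus (364 bp, with 423 longer) and a shorter estradiol peak (509 bp, with 896 longer). The order of the sites by length thus differed between the libraries, and how far peak length follows binding strength was not measured.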
